A study of Mus musculus with 9 samples.

Results

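Pericentral sinusoidal endothelial cells line the liver sinusoids near the central vein, and 724 of the 8562 cells in the count table met the rule used for them here. A cell was taken when it had at least 200 detected genes and at least 4 of 8 sinusoidal genes detected (Ptprb, Kdr, Clec4g, Gpihbp1, Dnase1l3, Bmp2, Gpr182, Ehd3). It also had at least 1 unique molecular identifier (UMI, standing for 1 captured RNA molecule) of the pericentral genes Wnt2, Wnt9b, Rspo3 or Kit, and none of the periportal genes Ntn4, Efnb2, Dll4 and Adgrg6. Fewer than 2 UMIs of Vwf and fewer than 5 of C1qa, C1qb and C1qc were allowed, which set aside cells of larger vessels and of macrophages. The cells were thus chosen by the measured levels of these 20 genes. In the chosen cells their levels are given as a description and no test result is read for them. Those expressed enough stayed in the fits between conditions.

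Whole livers of C57BL/6 mice were dissociated with collagenase and their cells were sequenced one by one from the 3' ends of transcripts in droplets. All mice carried ROSA26-rtTA-IRES-EGFP, a doxycycline-dependent transactivator, and all received doxycycline food. WT mice had no YAP transgene and were fed for 7 days (2 libraries), whereas tetYAP mice carried an inducible active YAP and were fed for 3 days (YAP3d, 4 libraries) or 7 days (YAP7d, 3 libraries). In the study's methods the transactivator was released by Alb-Cre, a recombinase driven by the albumin promoter, so that YAP was induced in hepatocytes and not by design in endothelium, and YAP3d mice differed from WT mice in the length of feeding as well. The labels give no age, sex or number of mice behind each library, and p-values measure the spread between libraries.

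Blood enters the liver lobule at the portal tract and leaves through the central vein, and the fenestrated endothelium of the sinusoid changes along that path. Endothelial cells near the central vein secrete Wnt2 and Wnt9b together with the Wnt enhancer Rspo3, which maintain the expression of central genes such as Glul in the neighbouring hepatocytes. Cells near the portal tract are known for Notch ligands, ephrins and the axon guidance factor Ntn4.

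The 724 cells held 3883789 UMIs. WT replicates 1 and 2 had 89 and 180 of the cells, YAP3d replicates 1 to 4 had 21, 18, 44 and 346, and YAP7d replicates 1 to 3 had 7, 9 and 10. Summed over the cells of a library, the depth ranged from 307109 to 910420 UMIs in WT, from 70657 to 2095723 in YAP3d and from 87559 to 120723 in YAP7d. The median per cell was 2420 and 4590 UMIs in WT, 2027.5 to 5164 in YAP3d and 8010 to 12818 in YAP7d, so the few YAP7d cells were the deepest. The 4 leukocyte markers (Ptprc, Cd52, Laptm5 and Coro1a) summed to 697 and 1110 CPM (counts scaled to 1000000 UMIs of the chosen cells) in the cells of the WT libraries, to 50, 113, 97.6 and 1991 CPM in YAP3d and to 103, 113 and 282 CPM in YAP7d, so that both WT libraries and YAP3d replicate 4 lay above all others and every YAP7d library lay under both WT libraries. Leaving out every cell with a UMI of Ptprc, the Cd3 genes or the Cd79 genes kept 419 cells, and results are given with and without the others where this changed them. In the whole set, T cell markers summed to 16.3 to 466 CPM, macrophage markers to 100 to 2234 CPM and hepatocyte markers to 137 to 553 CPM. The 4 lymphatic genes summed to 0 to 3.82 CPM. The 8 arterial or venous genes summed to 169 to 472 CPM, with a UMI in 69.8% of the cells, although Gja5 and Sema3g were at 0. The cell barcodes of 93 cells occurred in more than 1 library, 11 of them in pericentral cells, and 0 barcodes were shared between pericentral cells of 2 libraries.

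The label was checked first. Of 2277 cells that passed the sinusoidal part of the rule, 724 carried pericentral UMIs alone, 350 periportal UMIs alone, 596 both and 607 neither. A UMI of the 4 pericentral genes was found in 58.0% of the sinusoidal cells but in 4.72% of 1823 T cells of the same livers, which should lack these genes and had a nearly equal depth (medians of 4760 and 4783 UMIs). Within WT replicate 2 and YAP3d replicate 4 the share in T cells was 7.30% and 8.58%, and in the other libraries it was 0 to 2.27%. Of the pericentral cells, 239 (33.0%) rested on exactly 1 pericentral UMI and 206 had 5 or more. By library, the share resting on 1 UMI was 41.6% and 26.1% in WT, 28.6% to 45.5% in YAP3d and 57.1%, 66.7% and 50% in YAP7d, so it was highest in YAP7d. At the other threshold, 44 cells had 4 of the 8 sinusoidal genes, 527 had all 8, and 51 cells with 3 of the 8 stayed just outside, 37 of them in YAP3d replicate 4.

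Wnt2 (chromosome 6, 17985474 to 18032772 in GRCm38.p6) was the pericentral gene seen in most cells, at 591 of 724 (81.6%). Kit, a receptor tyrosine kinase (chromosome 5, 75574987 to 75656722), was seen in 430 (59.4%), Rspo3 in 71 (9.81%) and Wnt9b in 37 (5.11%). The label thus rested mostly on Wnt2 and Kit. In T cells Wnt2 was seen in 2.80% and Kit in 1.76%, and Rspo3 and Wnt9b in 0.329% and 0.0549%.

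The rule's own genes are described here, and no test result is read for them. Wnt2 stood at 495 and 636 CPM in the pericentral cells of WT, at 525, 382, 513 and 405 CPM in YAP3d and at 137, 248 and 166 CPM in YAP7d. Every YAP7d library lay under every other library. Kit was at 251 and 234 CPM in WT, 413, 425, 382 and 180 CPM in YAP3d and 57.1, 90.1 and 82.8 CPM in YAP7d, again with YAP7d lowest. Rspo3 was at 48.8 and 197 CPM in WT, 37.5, 28.3, 146 and 104 CPM in YAP3d and 0, 0 and 166 CPM in YAP7d, with overlapping groups. The 166 CPM came from 10% of the 10 cells of YAP7d replicate 3. Wnt9b reached at most 16.6 CPM in any library, again from 10% of the cells of YAP7d replicate 3. Because 1 UMI was enough to enter, a deeper cell could enter at a lower level of these genes, and the part of depth in their levels was not tested.

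All 8 sinusoidal genes of the rule had a lower mean in YAP7d than in WT. For Clec4g, a C-type lectin of liver endothelium, the mean and SD over libraries were 4774 ± 1170 CPM for WT (n = 2), 4734 ± 901 CPM for YAP3d (n = 4) and 1172 ± 333 CPM for YAP7d (n = 3). Ptprb, an endothelial phosphatase, averaged 1573, 1455 and 392 CPM and Ehd3, an endosomal protein, 2027, 1935 and 552 CPM. Gpihbp1, which carries lipoprotein lipase across endothelium, was at 2456, 2957 and 1969 CPM. The C1q genes, which the rule limited, had higher means in YAP7d than in WT, with 51.4 CPM in WT, 73.8 CPM in YAP3d and 86.8 CPM in YAP7d for C1qb.

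To test the zone genes in cells that they had not chosen, the comparison was repeated over all 2277 sinusoidal cells, which were taken without reference to either zone. This comparison was added after the data were seen. Of 5385 genes, 4.14% differed between YAP7d and WT, with a p-value of edgeR's quasi-likelihood test below 0.05 after Benjamini-Hochberg adjustment (adjusted p), and 2.01% were lower in YAP7d. The genes lower here, and in the comparison with YAP3d below, include Clec4g, Dnase1l3, Ehd3 and Ptprb, by which the sinusoidal cells were chosen. Changes are given as log2 ratios fitted by edgeR. Wnt2 stood at 339 and 319 CPM in the sinusoidal cells of WT, at 238, 303, 284 and 232 CPM in YAP3d and at 81.3, 143 and 140 CPM in YAP7d. The YAP7d libraries lay under all others, with a log2 ratio of -1.45 (SE 0.24, adjusted p 0.0127 in edgeR) against WT. Over 14 other settings the change ranged from -1.63 to -1.20, and it was past the threshold in 12. It was not past it without WT replicate 1 or without WT replicate 2, where the adjusted p in edgeR was at most 0.0910.

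Ntn4, a periportal gene, fell as well. It was at 98.4 and 89.2 CPM in the sinusoidal cells of WT, 102, 57.4, 97.4 and 55.8 CPM in YAP3d and 10.2, 9.84 and 12.4 CPM in YAP7d, which stand for 2, 2 and 3 UMIs, at or under the floor of 3. The YAP7d libraries did not overlap the others, and the log2 ratio against WT was -3.11 (SE 0.385, adjusted p 0.00437 in edgeR), past the threshold in all 14 other settings. Kit had a log2 ratio of -0.80 (SE 0.347, adjusted p 0.212 in edgeR), Dll4 one of -0.91 (SE 0.340, adjusted p 0.151 in edgeR) and Rspo3 one of -0.71 (SE 1.05, adjusted p 0.731 in edgeR). Kit passed the threshold in 2 of the 14 other settings, Dll4 and Rspo3 in 1 each and Efnb2 in none. For YAP3d against WT the change of Wnt2 was -0.36 on the log2 scale, at an adjusted p of 0.9998 in edgeR. Against YAP3d, YAP7d differed in 4.59% of the genes, 2.17% lower, and the log2 ratio of Wnt2 was -1.09 (SE 0.217, adjusted p 0.0231 in edgeR).

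**Figure D1:**
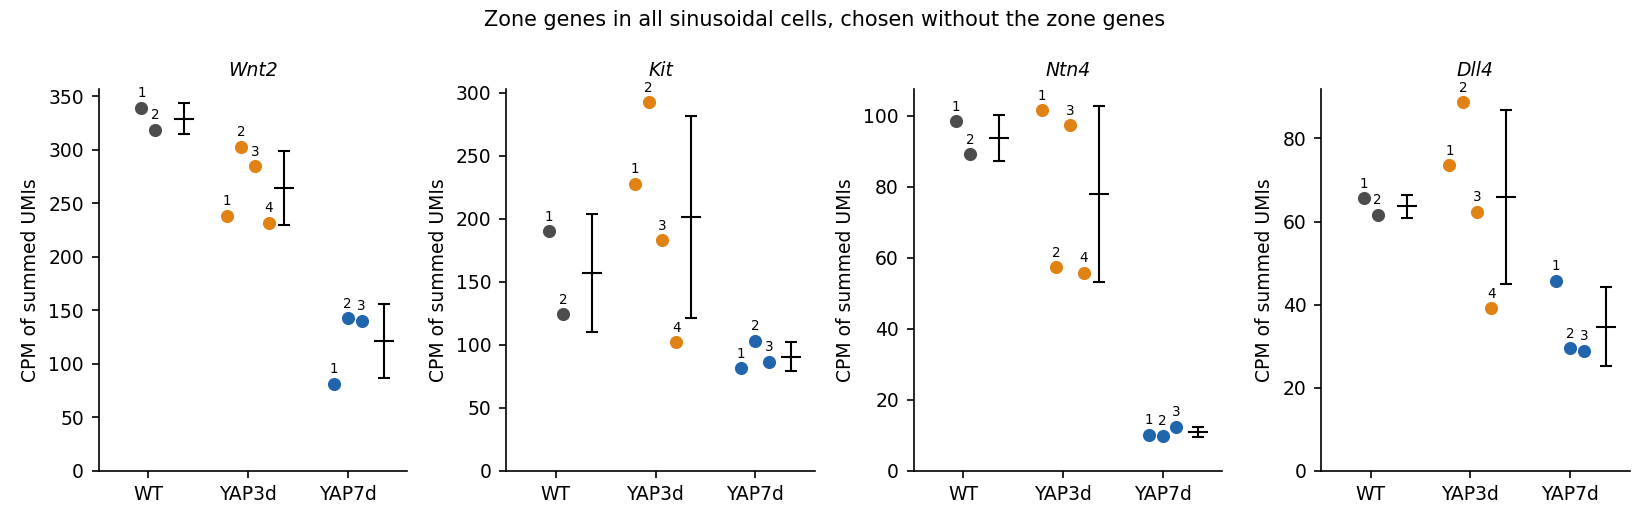
Levels of Wnt2, Kit, Ntn4 and Dll4 in all sinusoidal cells, in CPM (vertical axis) for the 2 WT, 4 YAP3d and 3 YAP7d libraries (numbered points, with bars for the mean ± SD). The YAP7d points of Wnt2 (81.3 to 143 CPM) and Ntn4 (9.84 to 12.4 CPM) lie under all WT and YAP3d points.

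The share of pericentral cells was compared next. Of all cells of a library, pericentral cells made up 16.9% and 12.7% in WT, 7.17%, 4.05%, 10.3% and 13.5% in YAP3d and 1.16%, 1.95% and 0.545% in YAP7d. The means were 14.8 ± 2.94% (SD, n = 2 libraries), 8.77 ± 4.08% (n = 4) and 1.22 ± 0.705% (n = 3), and YAP7d did not overlap the other groups. The 3 groups differed in an exact permutation test (p 0.0190). For YAP7d against WT alone the permutation p was 0.1 (exact, two-sided), the lowest value possible with 3 against 2 libraries. Sinusoidal cells as a whole made up 51.1% and 40.0% of the cells in WT, 10.8% to 43.0% in YAP3d and 1.25% to 4.77% in YAP7d, and a loss of these cells, a gain of others and a change in their recovery from the tissue cannot be told apart in these shares.

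Within the sinusoidal cells the pericentral share depended on how depth was treated. With every cell thinned to 2000 UMIs, that is, reduced at random to the same number of molecules, it was 40.4% and 38.0% in WT, 32.5%, 42.2%, 35.3% and 41.9% in YAP3d and 20.4%, 28.9% and 34.0% in YAP7d. The YAP7d range overlapped that of YAP3d and lay under that of WT. The difference between YAP7d and WT was -11.5 percentage points (exact two-sided permutation p 0.2, adjusted 0.3 over 3 pairs of groups), and the 3-group exact permutation p was 0.0770. Thinned to 1000 UMIs, the share was 32.0% and 33.5% in WT, 26.1% to 34.8% in YAP3d and 13.9%, 19.9% and 23.1% in YAP7d, and YAP7d lay under both other groups. The difference from WT was then -13.8 percentage points (exact permutation p 0.1, the lowest possible), with a 3-group exact permutation p of 0.0111. Thinning to 2000 UMIs left out cells with fewer UMIs, 66 of 269 pericentral cells in WT, 51 of 429 in YAP3d and 0 of 26 in YAP7d. Without thinning the shares were 32.4 ± 0.861% in WT, 31.6 ± 4.17% in YAP3d and 38.7 ± 6.13% in YAP7d, so that the difference turned to 6.38 percentage points. These shares count UMIs of the zone genes, and the part of the lower Wnt2 level in YAP7d was not tested.

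**Figure D2:**
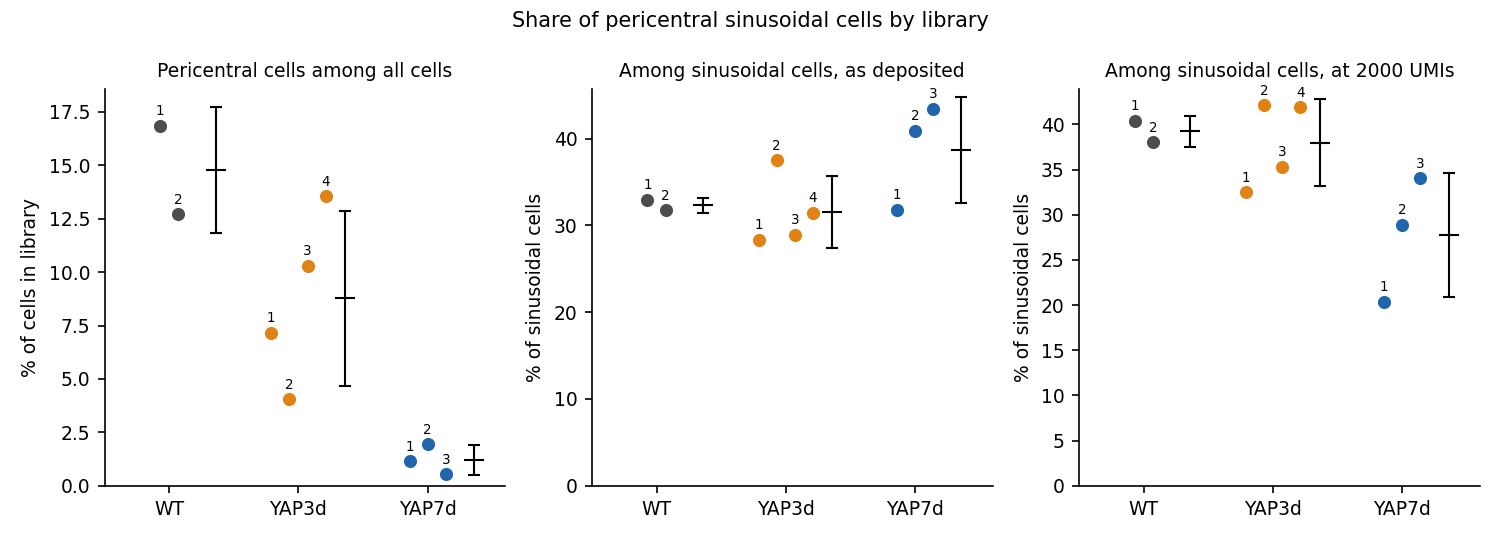
Pericentral cells by library as a percent of all cells, as a percent of sinusoidal cells, and as a percent of sinusoidal cells thinned to 2000 UMIs (vertical axes, numbered points for libraries, bars for mean ± SD). The share of all cells separates YAP7d (0.545 to 1.95%) from WT (12.7 and 16.9%), whereas the share of sinusoidal cells lies higher in YAP7d before thinning (mean 38.7%) and lower after it (20.4 to 34.0%) than in WT.

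Which genes other than those of the rule marked the pericentral cells was tested against the 350 periportal cells of the same libraries. The 6 WT and YAP3d libraries, each with at least 5 cells of either zone, entered a paired fit, and YAP7d libraries with 3, 2 and 2 periportal cells did not. Of 2169 genes tested, 157 (7.24%) differed, 74 (3.41%) higher and 83 (3.83%) lower in pericentral cells, and 170 (7.84%) had the same sign in 6 of 6 libraries. The count of called genes was 75 without WT replicate 2, 60 without YAP3d replicate 4 and 79 with DESeq2. The leukocyte markers summed to 697 and 1110 CPM in the pericentral and 104 and 772 CPM in the periportal cells of WT, and to 50, 113, 97.6 and 1991 CPM against 55.1, 127, 355 and 1264 CPM in YAP3d. Without the cells carrying leukocyte UMIs 91 genes were called, and 18 of 18 named genes that could be tested were among them.

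Lgals1, the gene of galectin-1, a secreted lectin that binds glycans on immune and endothelial cells, was the most raised in pericentral cells (chromosome 15, 78926725 to 78930465). In pericentral and periportal cells it stood at 638 and 187 CPM in WT replicate 1, 1508 and 423 CPM in WT replicate 2, 1351 and 73.5 CPM in YAP3d replicate 1, 2802 and 169 CPM in replicate 2, 1880 and 832 CPM in replicate 3 and 834 and 263 CPM in replicate 4. The pericentral value was the higher one in 6 of 6 libraries, with a log2 difference of 1.88 (SE 0.169, adjusted p 1.99e-08 in edgeR). Plpp1, which dephosphorylates lysophosphatidic acid and related lipids, was likewise higher in 6 of 6, at 1241 to 2349 CPM in pericentral and 532 to 1269 CPM in periportal cells (log2 difference 1.05, SE 0.106, adjusted p 1.45e-07 in edgeR).

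Gas6, the ligand of the receptor tyrosine kinases Axl, Mertk and Tyro3, had 322 and 125 CPM in pericentral and periportal cells of WT replicate 1, 368 and 203 CPM in WT replicate 2 and 267 to 513 CPM against 77.7 to 254 CPM in YAP3d. It was higher in pericentral cells in all 6 libraries, by 1.14 on the log2 scale (SE 0.149, adjusted p 9.34e-06 in edgeR). Ptgs1, the cyclooxygenase that opens prostanoid synthesis, was higher by 1.07 (SE 0.133, adjusted p 4.36e-06 in edgeR), and Plvap, which forms the diaphragms of endothelial fenestrae, by 0.81 (SE 0.134, adjusted p 0.000168 in edgeR). Dhrs3, which reduces retinaldehyde, Khk, which phosphorylates fructose, Mylip, a ubiquitin ligase for the LDL receptor, and Hn1 were higher by 0.77, 0.93, 0.88 and 0.76. All of these genes were higher in 6 of 6 libraries, and Plvap, Dhrs3, Mylip and Hn1 missed the threshold when only libraries with under 1000 cells were fitted.

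H2-Aa, a chain of the MHC class II complex, was also among the genes higher in pericentral cells (log2 difference 1.17, SE 0.332, adjusted p 0.0278 in edgeR; DESeq2 adjusted p 0.617). Its level followed the libraries with leukocyte markers, with 2276, 1316 and 2696 CPM in the pericentral cells of both WT libraries and YAP3d replicate 4 and 14.2 to 75 CPM in the others. Without the cells carrying leukocyte UMIs H2-Aa was not among the genes that could be tested, so the part of leukocyte RNA in this difference was not tested. H2-Aa lost the threshold without YAP3d replicate 2.

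On the periportal side, Ly6a, a surface protein also known as Sca-1 (chromosome 15, 74994877 to 74998031), had 547 CPM in pericentral and 1253 CPM in periportal cells of WT replicate 1 and 659 and 2433 CPM in WT replicate 2. In the YAP3d libraries it had 263 and 1949, 198 and 1522, 366 and 921 and 208 and 1018 CPM. The periportal value was higher in 6 of 6 libraries (log2 difference -1.93, SE 0.148, adjusted p 1.67e-09 in edgeR). The other genes named as lower in pericentral cells included Tm4sf1, a small surface protein of endothelium (log2 difference -1.005, SE 0.0917), the chemokine gene Cxcl9 (-1.11), the chemokine-binding receptor gene Ackr1 (-1.10), Serpina3g (-0.995) and the amino acid transporter gene Slc43a2 (-0.98).

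All 4 periportal genes listed outside the rule were lower in pericentral cells, as were 3.83% of all genes tested, with a median log2 difference of -1.55 beside 0.00 over all genes tested. Msr1, a scavenger receptor, was at 71.6 to 277 CPM in pericentral and 292 to 598 CPM in periportal cells (log2 difference -1.89, SE 0.147, adjusted p 1.67e-09 in edgeR). Efnb1, an ephrin, differed by -1.92, Ltbp4, which binds latent TGF-beta, by -1.21 and the adhesion protein gene Adam23 by -0.95. The list of pericentral genes outside the rule had 3 of 6 members that could be tested, of which 1 was called, against 3.41% of all genes called higher. This was Lyve1, a hyaluronan receptor, higher by 0.62 (SE 0.149, adjusted p 0.00963 in edgeR), whereas Fabp4, a fatty acid carrier, had 0.34 (adjusted p 0.0869 in edgeR) and Plxnc1, a semaphorin receptor, 0.20 (adjusted p 0.485 in edgeR).

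**Figure D3:**
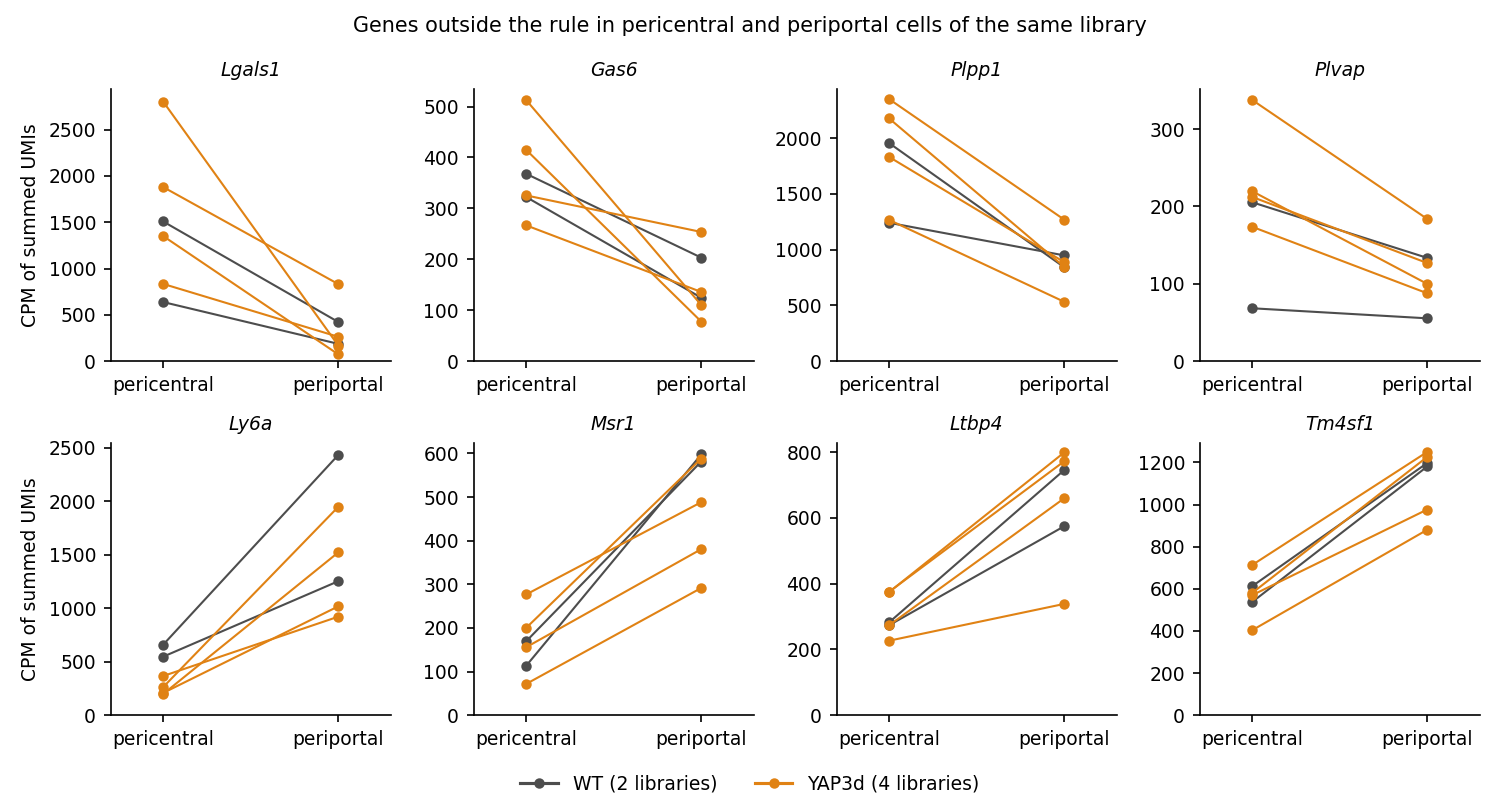
Level in CPM (vertical axis) of 8 genes outside the rule in pericentral and periportal cells, with a line joining both values of each of the 6 WT and YAP3d libraries. Lgals1, Gas6, Plpp1 and Plvap are higher on the pericentral side of each line, and Ly6a, Msr1, Ltbp4 and Tm4sf1 on the periportal side.

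Other gene groups are read against the 3.41% of all genes called higher and the 3.83% called lower between the zones. Of 16 sinusoidal identity genes tested outside the rule, Lyve1 was higher and the fatty acid transporter gene Cd36 lower (log2 difference -0.74, SE 0.111, adjusted p 7.22e-05 in edgeR), and the median was 0.04. Of 6 genes of the BMP response, none was higher and 2 were lower, the inhibitor Smad6 with a log2 difference of -0.68 and the receptor gene Bmpr2 with one of -0.94. Of 8 genes of leukocyte adhesion, the tetraspanin gene Cd9 was higher, and Vcam1, Jam2 and Cxcl9 were lower. None of the 10 tested genes of the VEGF and angiopoietin axis differed, with a median of 0.03.

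Hepatocyte genes were compared between the zones as well. Glul, glutamine synthetase and a marker of hepatocytes around the central vein, stood at 136 to 269 CPM in pericentral and 211 to 355 CPM in periportal cells, and was lower in pericentral cells in 5 of 6 libraries (log2 difference -0.81, SE 0.134, adjusted p 0.000179 in edgeR). The 12 hepatocyte markers were also lower in pericentral cells in 5 of 6 libraries, at 159 against 557 CPM in WT replicate 2 and 305 against 1302 CPM in YAP3d replicate 4, and their part in the difference of Glul was not tested. Stellate markers stood at 35.1 against 789 CPM and erythroid markers at 16.5 against 1076 CPM in WT replicate 2. Each of these marker sets was higher in pericentral cells in 3 of the 6 libraries, stellate markers in YAP3d replicates 1, 2 and 3 and erythroid markers in YAP3d replicates 1, 3 and 4. Hepatocyte RNA was also scored as the share of central genes among the UMIs of 9 central and 9 portal hepatocyte genes. It averaged 89.2 ± 8.29% in pericentral and 87.1 ± 17.6% in periportal cells over 7 libraries, a difference of 2.09 percentage points (exact permutation p 0.688), and without YAP3d replicate 4 the difference was -1.83. The central UMIs of pericentral cells were mostly of Glul (68.9%) and Oat (25.0%), and the cells from which these UMIs came were not tested.

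The effect of YAP induction within the pericentral cells was addressed by summing their counts per library and fitting the 3 groups together. Genes of the rule stayed in this fit. Of these, 5 of 8 sinusoidal genes and 2 of 3 tested pericentral genes are counted as lower between YAP7d and WT. As the cells were chosen by these genes, those calls are not read as results. Of 2781 genes tested, 215 (7.73%) differed between YAP7d and WT, 104 (3.74%) higher and 111 (3.99%) lower. This count was 43 without WT replicate 1, 58 without WT replicate 2, 109 and 70 without YAP7d replicates 1 and 2, and 412 without YAP3d replicate 4, and YAP7d rested on 26 cells. Without the cells carrying leukocyte UMIs 458 of 1760 genes were called, and 190 of 190 of the 215 that could be tested kept their direction. With the cells thinned to 2000 UMIs 155 of 1031 genes were called, and 137 of 138 kept it, 72 of them past the threshold. The 215 genes were called in the same data, so a kept direction is not separate support. The 2 groups did not overlap for 1168 genes (42%). Stellate markers stood at 42.3 and 35.1 CPM in WT, 70.8 to 338 CPM in YAP3d and 0 CPM in every YAP7d library, and hepatocyte markers averaged 226 CPM in WT and 161 CPM in YAP7d. The part of RNA from these cells in the changes was not tested.

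Odc1, ornithine decarboxylase, which opens polyamine synthesis (chromosome 12, 17544808 to 17551502), stood at 22.8 and 46.1 CPM in WT, 37.5, 56.6, 48.8 and 57.3 CPM in YAP3d and 320, 372 and 348 CPM in YAP7d. The 3 YAP7d libraries lay far above all others (log2 ratio 3.17, SE 0.334, adjusted p 0.000441 in edgeR), and the call held in 21 of 21 other settings. Srm, spermidine synthase of the same pathway, was at 26.0 and 29.7 CPM in WT, 24.4 to 56.6 CPM in YAP3d and 228, 135 and 124 CPM in YAP7d, with the YAP7d libraries again above the others (log2 ratio 2.45, SE 0.416, adjusted p 0.00421 in edgeR).

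Ednrb, the endothelin B receptor, was at 26.0 and 6.59 CPM in WT and 171, 169 and 141 CPM in YAP7d. In YAP3d it was at 0, 14.2, 8.14 and 10.5 CPM, with replicates 1 to 3 under the floor of 3 UMIs. It too was higher in every YAP7d library than in any other (log2 ratio 3.51, SE 0.654, adjusted p 0.00766 in edgeR), although it missed the threshold without WT replicate 2. Mest, an imprinted gene of a hydrolase-like protein, was at 32.6 and 51.6 CPM in WT, 8.14 to 87.5 CPM in YAP3d and 286, 349 and 265 CPM in YAP7d (log2 ratio 2.71, SE 0.420, adjusted p 0.00309 in edgeR). The groups did not overlap for these genes.

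The other named genes that rose from WT to YAP7d were Plaur, the urokinase receptor (log2 ratio 3.21), Phlda3, a p53 target that restrains Akt (2.95), Inhbb, which encodes the activin B subunit (2.59), C1qtnf6 (2.46) and Ppp1r14b, an inhibitor of protein phosphatase 1 (2.44). Gm10709, a pseudogene whose reads may belong to related copies, had the largest change (log2 ratio 6.07, SE 1.41, adjusted p 0.0208 in edgeR). It was at 0 and 12.1 CPM in WT, 363 and 396 CPM in YAP3d replicates 1 and 2, 0 and 8.59 CPM in replicates 3 and 4, and 400 to 762 CPM in YAP7d, so that it split the YAP3d libraries. Plaur lost the threshold without WT replicate 1, and Phlda3, Inhbb, C1qtnf6 and Gm10709 did so without either WT library in turn.

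Gas6, which was higher in pericentral than in periportal cells, was the protein-coding gene with the smallest adjusted p among the named falls. It also fell in all sinusoidal cells, which include the pericentral ones (log2 ratio -2.14, SE 0.202, adjusted p 0.00232 in edgeR). Odc1 and Ednrb rose there by 3.10 and 2.73, so these changes are not shown to be particular to pericentral cells. In the pericentral cells Gas6 went from 322 and 368 CPM in WT and 267 to 513 CPM in YAP3d to 68.5, 22.5 and 49.7 CPM in YAP7d. No YAP7d library reached any other (log2 ratio -2.91, SE 0.363, adjusted p 0.00115 in edgeR), and the call was lost in 1 of 22 other settings, where only libraries with at least 10 cells entered and YAP7d had 1 library. Hspa1b, an inducible heat shock protein, was at 215 and 412 CPM in WT, 198 to 439 CPM in YAP3d and 79.9, 0 and 0 CPM in YAP7d (log2 ratio -3.76, SE 0.723, adjusted p 0.00895 in edgeR), and missed the threshold without WT replicate 2.

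C5ar2, a receptor for the complement fragment C5a, fell from 111 and 97.8 CPM in WT to 22.8, 0 and 8.28 CPM in YAP7d (log2 ratio -3.35, SE 0.621, adjusted p 0.00759 in edgeR). These YAP7d values lay under the floor of 3 UMIs, which stood at 34.3, 33.8 and 24.9 CPM in YAP7d. So did Gas6 in YAP7d replicate 2 and Hspa1b in YAP7d replicates 2 and 3, and the size of such falls is poorly measured. Also among the named falls were Ppt1, a lysosomal thioesterase (-2.69), Cdk2ap2 (-2.63), the interferon-induced Ifit3 (-2.62), Clec2d, a lectin-like ligand (-2.59), Enpep, an aminopeptidase that cleaves angiotensin II (-2.57), and the uncertain gene models Gm9844 and Gm10116 (-4.03 and -3.42). Each of the fallen genes other than C5ar2 and Gas6 missed the threshold without at least 1 WT or YAP7d library, and all 20 named genes were called by DESeq2 as well.

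**Figure D4:**
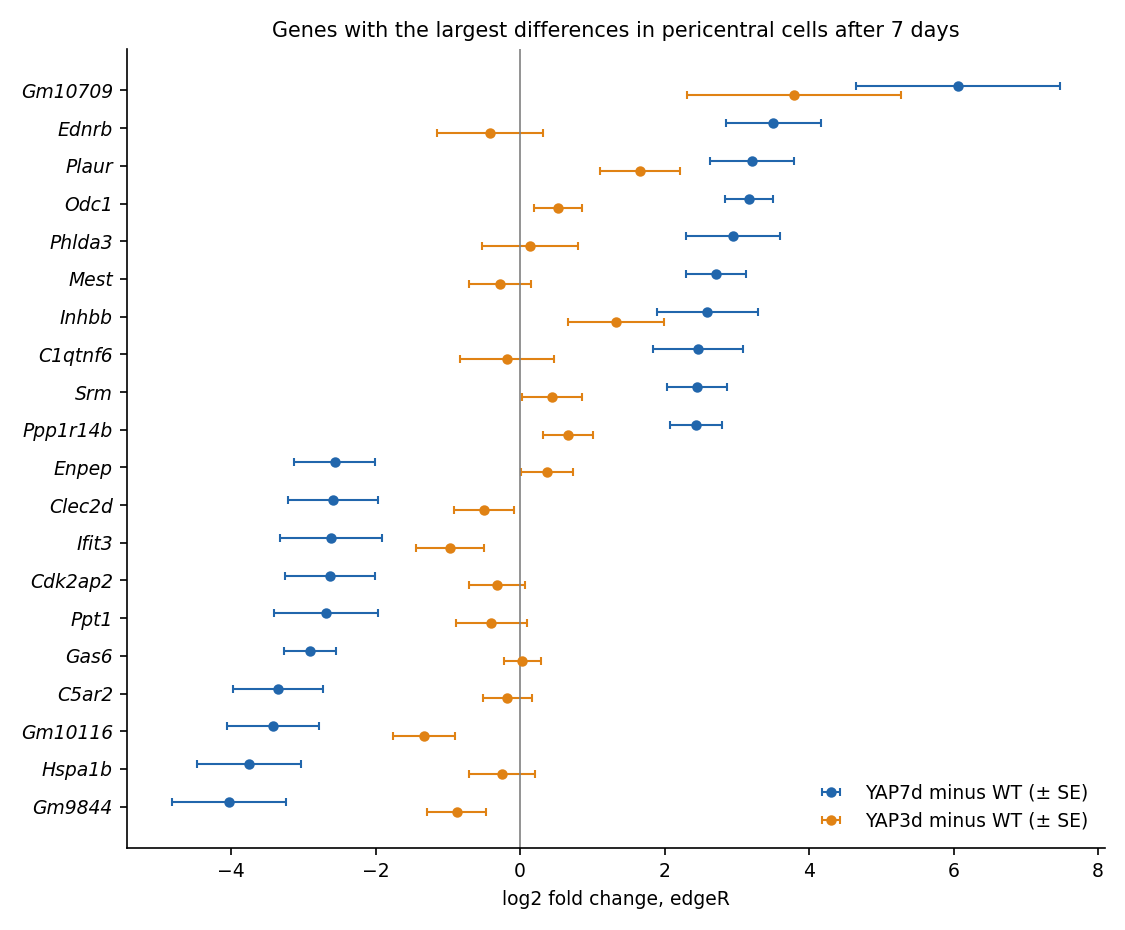
Log2 ratio ± SE (horizontal axis) of the 20 genes named for YAP7d against WT in pericentral cells, with the value of YAP3d against WT beside it. The YAP7d values range from -4.03 to 6.07, and none of the YAP3d values passed the threshold.

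Genes that mark sinusoidal endothelium without being part of the rule were partly lower in YAP7d. Of 18 listed, 16 could be tested, 4 fell (against 3.99% of all genes tested) and none rose, with a median log2 ratio of -0.47 beside -0.02 over all genes tested. F8, coagulation factor VIII, was at 729 and 405 CPM in WT, 305 to 1238 CPM in YAP3d and 206, 158 and 116 CPM in YAP7d (log2 ratio -1.89, SE 0.464, adjusted p 0.0251 in edgeR). Fcgr2b, the Fc receptor that clears immune complexes, fell by 1.09, the transcription factor gene Maf by 1.19 and the tetraspanin gene Tspan7 by 1.25, and their YAP7d values lay under all WT and YAP3d values. The scavenger receptor genes Stab1 and Stab2 had log2 ratios of -0.49 (adjusted p 0.224 in edgeR) and -0.45 (adjusted p 0.317 in edgeR), and Mrc1, the mannose receptor, one of -1.09 (adjusted p 0.0545 in edgeR). Lyve1 had 0.85 (adjusted p 0.178 in edgeR).

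Zone genes outside the rule moved in both directions, where 3.74% of all genes were called higher and 3.99% lower. Among the 5 pericentral ones tested, Fabp4 (chromosome 3, 10204342 to 10208616) rose from 1042 and 1166 CPM in WT to 2672, 2975 and 4647 CPM in YAP7d, with 958 to 1651 CPM in YAP3d. The YAP7d libraries lay above all others (log2 ratio 1.61, SE 0.321, adjusted p 0.00977 in edgeR). Plxnc1 fell from 593 and 401 CPM in WT to 103, 146 and 41.4 CPM in YAP7d (log2 ratio -2.45, SE 0.410, adjusted p 0.00407 in edgeR), and Lyve1, Thbd and Rab3b did not pass, so the list's median was 1.03. Of 3 periportal genes tested, Ltbp4 and Adam23 fell, with log2 ratios of -2.02 and -1.82, and Msr1 had one of -0.50 (adjusted p 0.554 in edgeR). In all sinusoidal cells Fabp4, Plxnc1, Ltbp4 and Adam23 had log2 ratios of 1.87, -1.60, -2.26 and -1.77.

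Among secreted factors by which endothelium acts on its neighbours, 5 of 19 could be tested and 1 passed, against 7.73% of all genes tested. Inhbb rose from 19.5 and 16.5 CPM in WT to 160, 124 and 58.0 CPM in YAP7d, with 0 to 81.4 CPM in YAP3d, which overlapped YAP7d. Kitl, the ligand of Kit, had a log2 ratio of 1.73 (adjusted p 0.133 in edgeR), Tgfb1 0.81 (adjusted p 0.0873 in edgeR) and Hgf 0.40 (adjusted p 0.745 in edgeR), and the list's median was 1.03. None of 6 tested genes of Wnt reception passed, among them the secretion factor gene Wls (log2 ratio -0.94, adjusted p 0.171 in edgeR), the coreceptor gene Lrp6 (-0.93) and Ctnnb1 (0.25).

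Of 10 genes of the VEGF, angiopoietin and apelin axis, 2 fell, against 3.99% of all genes tested, with a median of -0.28. Tek, the angiopoietin receptor, was at 313 and 282 CPM in WT, 215 to 388 CPM in YAP3d and 194, 158 and 91.1 CPM in YAP7d (log2 ratio -1.09, SE 0.297, adjusted p 0.0383 in edgeR). Nrp1, a VEGF coreceptor, fell by 0.83 (SE 0.239, adjusted p 0.0487 in edgeR), and Flt1 and Flt4 did not pass. Of 5 genes of the BMP response, Id3 alone was called and fell by 1.13 (SE 0.244, adjusted p 0.0147 in edgeR), while Id1 had a log2 ratio of 0.73 (adjusted p 0.233 in edgeR).

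All 18 tested immediate early and heat shock genes had a negative fold change, with a median of -1.21 beside -0.02 over all genes tested, and 5 passed, against 3.99% of all genes called lower. Fos was at 1778 and 1804 CPM in WT, 807 to 1901 CPM in YAP3d and 423, 349 and 547 CPM in YAP7d, with YAP7d under all others (log2 ratio -2.06, SE 0.324, adjusted p 0.00320 in edgeR). Fosb and Egr1 each fell by 1.89, Dusp1, a phosphatase of the same response, fell by 1.67, and Hspa1b is given above. Jun, Junb, Hspa8 and Hspa1a did not pass, the last at 765, 0 and 8.28 CPM in YAP7d. These genes respond to tissue dissociation as well as to conditions in the animal, and the part of dissociation was not tested.

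YAP itself and its partners were sparse in the pericentral cells. Yap1 had 105 UMIs over all 724 cells and stood at 32.6 and 24.2 CPM in WT, 25.0, 56.6, 32.5 and 27.2 CPM in YAP3d and 11.4, 45.1 and 8.28 CPM in YAP7d, with overlapping groups. Tead1 had 50 UMIs, Tead4 25 and the YAP target Ctgf 11, Ankrd1 had 0, and all were too low to be tested. Cyr61 had 115 UMIs, 60 of them in WT replicate 2 and 40 in YAP3d replicate 4, and was not tested either. The YAP homologue Wwtr1, also called TAZ, could be tested, with 94.4 and 74.7 CPM in WT, 56.6 to 163 CPM in YAP3d and 137, 90.1 and 91.1 CPM in YAP7d, and did not differ beyond the spread (log2 ratio 0.29, SE 0.426, adjusted p 0.714 in edgeR). Of 22 known YAP targets only 4 could be tested, against 3.74% of all genes called higher and 3.99% called lower. None was called higher, and Amotl1, an angiomotin that binds YAP, fell by 1.54 (SE 0.396, adjusted p 0.0306 in edgeR).

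Of 29 S phase genes 8 could be tested. All 8 tested S phase genes had a positive fold change, with a median of 1.38, and 1 passed, against 3.74% of all genes called higher. This was Lig1, the replicative DNA ligase, at 29.3 and 22.0 CPM in WT, 21.9 to 70.8 CPM in YAP3d and 103, 146 and 124 CPM in YAP7d (log2 ratio 2.28, SE 0.515, adjusted p 0.0192 in edgeR). Summed over 29 S phase genes, the level was 775 and 807 CPM in WT, 563, 1373, 480 and 716 CPM in YAP3d and 1919, 2062 and 1524 CPM in YAP7d. The YAP7d libraries lay above all others. The 26 mitosis genes did not share that order, with 1615 and 763 CPM in WT, 87.5, 297, 155 and 341 CPM in YAP3d and 468, 620 and 837 CPM in YAP7d, and none of 4 tested passed.

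With cells thinned to 2000 UMIs, the share of pericentral cells with at least 2 UMIs of these mitosis genes, called cycling here, was 8.78% and 5.32% in WT, 0%, 14.3%, 9.32% and 4.60% in YAP3d and 31.4%, 29.4% and 23.5% in YAP7d. YAP7d did not overlap the others, and the 3-group exact permutation p was 0.0127. YAP7d against WT gave a difference of 21.1 percentage points (exact permutation p 0.1, the smallest that the design allows). The difference was 9.74 points with cells thinned to 1000 UMIs, 12.4 points with at least 3 UMIs (3-group exact permutation p 0.0492) and 50.1 points without thinning. Since the summed mitosis level in WT overlapped that of YAP7d, no order of WT and YAP7d in division is read from this share.

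The mitosis level of WT moved with the cells carrying leukocyte UMIs. Without those cells the mitosis genes summed to 152 and 81.9 CPM in WT, 85.9, 318, 155 and 102 CPM in YAP3d and 487, 651 and 531 CPM in YAP7d, and YAP7d lay above all others. The S phase genes then summed to 570 and 558 CPM in WT, 457 to 1452 CPM in YAP3d and 1255 to 1952 CPM in YAP7d, of which only the lowest YAP7d library overlapped YAP3d. The share of cycling cells, as mean and SD over libraries, was 3.51 ± 2.27% for WT (n = 2), 7.20 ± 7.35% for YAP3d (n = 4) and 28.5 ± 5.18% for YAP7d (n = 3), with a 3-group exact permutation p of 0.00952. The YAP7d values then rest on 6, 8 and 6 cells.

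**Figure D5:**
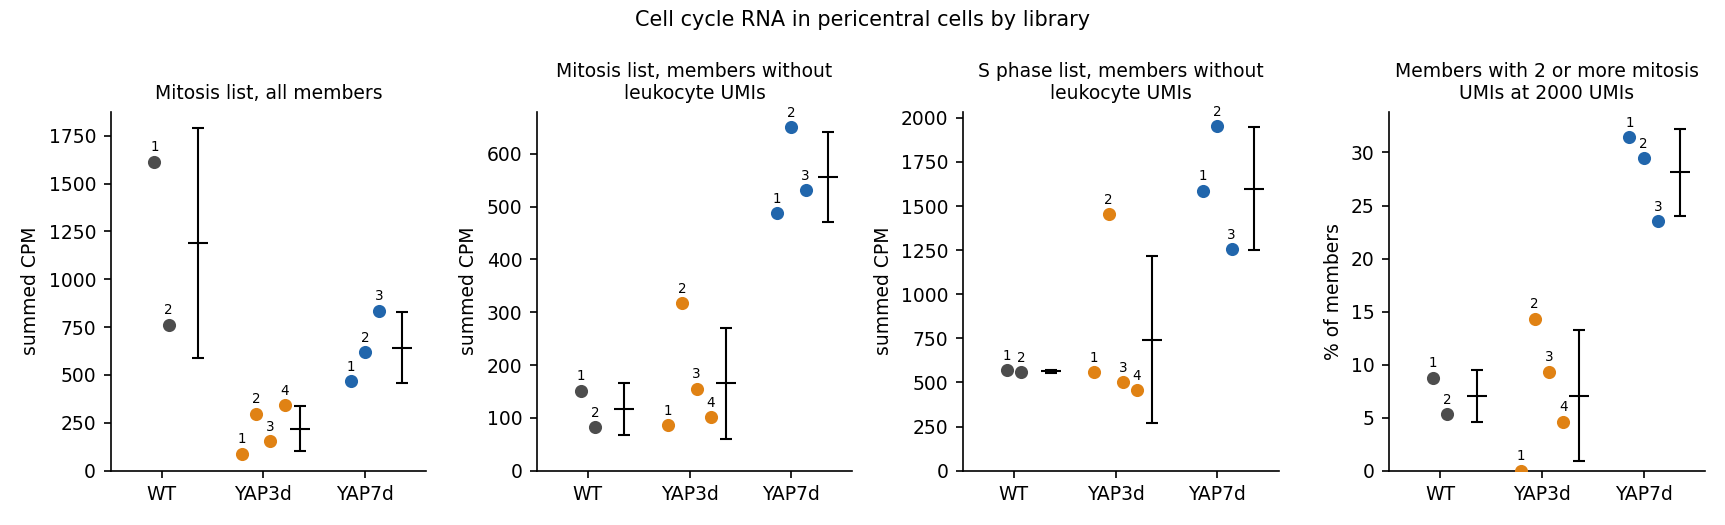
Summed CPM of the mitosis genes in all pericentral cells, of the mitosis and S phase genes in those without leukocyte UMIs, and the percent of all pericentral cells with 2 or more mitosis UMIs at 2000 UMIs (vertical axes, numbered points for libraries, bars for mean ± SD). For mitosis the WT libraries (763 and 1615 CPM) overlap YAP7d in the leftmost panel, and without leukocyte UMIs (81.9 and 152 CPM) they lie under it.

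Of 11 genes of capillary endothelium and basement membrane, Sparc, a matrix-binding glycoprotein, rose, against 3.74% of all genes tested, by a log2 ratio of 1.04 (adjusted p 0.0484 in edgeR) and Ly6a fell by 1.60 (adjusted p 0.0224 in edgeR), with a median of 0.70. None of 8 genes of leukocyte adhesion, 4 flow-responsive genes, 3 Hippo pathway genes and 12 antigen presentation genes passed, against 7.73% of all genes tested. Antigen presentation genes had a median of -0.93, with 11 of 12 below 0, and summed to 23301 and 22133 CPM in WT, 11733 to 25333 CPM in YAP3d and 10290, 5893 and 10503 CPM in YAP7d. Without the cells carrying leukocyte UMIs the sums averaged 13992 CPM in WT and 8807 CPM in YAP7d. Among these genes, Cd74 stood at 5229 and 3692 CPM in WT, 37.5, 113, 179 and 7261 CPM in YAP3d and 22.8, 67.6 and 331 CPM in YAP7d, which followed the leukocyte markers, and the part of leukocyte RNA in it was not tested. Of 12 endothelial transcription factor genes Maf alone passed and was lower, against 3.99% of all genes called lower.

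No gene differed between YAP3d and WT in the pericentral cells, at 0 of 2781 (0%) with edgeR and 0 with DESeq2, and 27 genes had an unadjusted edgeR p below 0.05. For YAP3d against WT the log2 ratio of Odc1 was 0.52, that of Gas6 0.03 and that of Fabp4 0.00, each at an adjusted p of 0.9996 in edgeR. The values of both groups did not overlap for 6.01% of the genes. The count of called genes was 57 with a block for the replicate number, 5 with a block for libraries of over 1000 cells, 47 in libraries of under 1000 cells, where WT had 1 library, 22 without YAP3d replicate 4 and 0 or 1 without any other library.

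YAP7d also differed from YAP3d, in 228 of 2781 genes (8.2%), 107 (3.85%) higher and 121 (4.35%) lower, and the groups did not overlap for 23.3%. The genes counted as lower again include 5 of the 8 sinusoidal and 2 of the 3 tested pericentral genes of the rule. The stellate marker gene Dcn was among those called lower, at 28.3 to 213 CPM in YAP3d and 0 CPM in every YAP7d library, and the part of stellate RNA in this comparison was not tested. This comparison shares the YAP7d libraries with the one against WT, so its values are given side by side and not as separate support. The count was 74 without YAP7d replicate 2, 117 and 134 without YAP7d replicates 1 and 3, 110 and 116 without YAP3d replicates 1 and 3, and 399 without YAP3d replicate 4. Ednrb was higher in YAP7d by 3.92, Mest by 2.99 and Odc1 by 2.65 on the log2 scale, and Hspa1b was lower by a log2 ratio of -3.50, C5ar2 of -3.18, Gas6 of -2.94 and Enpep of -2.94.

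Further genes were named for this comparison. Cd34, a sialomucin of capillary endothelium, was at 12.5, 0, 8.14 and 32.0 CPM in YAP3d and 114, 78.9 and 133 CPM in YAP7d, with WT at 39.1 and 15.4 CPM, and YAP7d lay above both other groups (log2 ratio 2.19, SE 0.620, adjusted p 0.0434 in edgeR). Its values in YAP3d replicates 1 to 3 lay under the floor of 3 UMIs. Stmn1, which destabilises microtubules, was higher by 1.92 and Lig1 by 2.02. Khk was lower in YAP7d (log2 ratio -2.41, SE 0.565, adjusted p 0.0203 in edgeR), as were Plxnc1 (-2.29) and Marf1 (-2.50). Cd34 missed the threshold without each of 5 libraries in turn, among them WT replicate 1, at a log2 ratio of 1.99 to 2.40.

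Whether the difference between YAP7d and WT was itself another one in pericentral than in periportal cells could hardly be tested, because the YAP7d libraries held 3, 2 and 2 periportal cells. In a fit that took every library with at least 1 cell in each zone, added after the data were seen, 1 of 1432 genes (0.0698%) passed and 93 had an unadjusted edgeR p below 0.05. This was Hmgb2, a chromatin protein abundant in dividing cells, with a log2 difference of differences of -3.53 (adjusted p 0.00904 in edgeR). In periportal cells Hmgb2 was at 83.1 and 170 CPM in WT and 2317, 362 and 661 CPM in YAP7d, whereas in pericentral cells it was at 863 and 450 CPM in WT and 320, 349 and 464 CPM in YAP7d. The mitosis level of the WT pericentral cells moved with leukocyte UMIs, and the part of those cells in the difference of Hmgb2 was not tested.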

How the data were processed

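The authors deposited 1 table of raw UMI counts, cells in columns, whose prefix gives the library. The submitters' processing notes name Cell Ranger and Seurat 2 and the mm10 genome. The study's methods give v2 chemistry for its whole-liver libraries, which these are. Members and gene lists were chosen with earlier results of these data known.

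Counts of the chosen cells were summed per library with at least 5 such cells. All 3 groups entered 1 fit in edgeR 4.0.16 (R 4.3.3, quasi-likelihood test, TMM scaling, filterByExpr), with Benjamini-Hochberg adjustment over all genes tested, and DESeq2 1.42.0 was an alternative. The zones were fitted with the library as a block and the 20 genes of the rule left out. The fits between conditions kept these genes. CPM are the summed counts scaled to 1000000 UMIs. Shares were averaged over 20 random thinnings to 2000 UMIs and compared with exact permutation tests (Python 3.11.15, scipy 1.17.1). Doublets were not called, and cells with macrophage transcripts were limited by the rule. Fits were tested on simulated data: for YAP7d against WT, edgeR recovered 70.5% of genes changed by a log2 of 2 (2392 tested) and 86% by 3 (2371 tested), with 2.76% and 6.52% of the calls false.

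For each comparison up to 10 rises and 10 falls of largest log2 ratio were named among genes that passed an adjusted p of 0.05, averaged 50 CPM or more in 1 group and had values that did not overlap (for zones, the same sign in every library). Genes of the rule, haemoglobin, immunoglobulin, mitochondrial, ribosomal and other cells' marker genes were left out. Of each list, up to 6 members with the highest mean CPM and any that passed could be named, and Yap1, Wwtr1, Tead1, Tead4, Ctgf, Cyr61 and Ankrd1 whatever their values. Of 27998 genes, 22794 matched RefSeq symbols of GRCm38.p6, from which positions were taken. Replicate numbers were not taken to pair the libraries: over 7 pairs with the same number, deviations from the group means correlated at -0.17 to 0.12, 2 of them over 0.1. The 3 libraries of over 1000 cells, 1 in each group, correlated at 0.28 to 0.34, and a block for them was added after the data were seen. Some results that this rule would name are not reported here.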

Additional observations from a re-analysis of the deposited data

Results flagged for a closer look

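Among the 4 YAP3d libraries, Hspa1b in the pericentral cells stood at 439 CPM in replicate 3, far from 198 to 238 CPM in the others. Smyd2, a lysine methyltransferase gene, likewise stood at 32.5 CPM in YAP3d replicate 3, far from 12.5 to 14.3 CPM in the other 3 libraries. That value is 4 UMIs and those of YAP3d replicates 1 and 2 are 1 UMI each, under the floor of 3 UMIs. These were 2 of 36 groups of values examined, and chance alone sets a library apart in about 1 in 20 groups. The change of Hmgb2 from WT to YAP7d differed between pericentral and periportal cells, by -3.53 on the log2 scale (SE 0.588, adjusted p 0.00904 in edgeR), and the YAP7d periportal values behind it came from 3, 2 and 2 cells. The part of cells with leukocyte UMIs in the WT pericentral values was not tested.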

How the results depend on the processing

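Genes called between YAP7d and WT (215) numbered 388 without the filter on low counts, 451 with the replicate block, 9 with at least 10 cells per library, 64 with at least 2 pericentral UMIs, 458 without leukocyte UMIs, 466 with 6 of the 8 sinusoidal genes, 412 with a block for libraries of over 1000 cells, 352 in libraries of under 1000 cells and 43 to 412 with a library left out. In the same order, those between YAP7d and YAP3d (228) numbered 385, 397, 2, 40, 413, 401, 384, 402 and 74 to 399, and 104 with thinning. Those between YAP3d and WT (0) numbered 29 without the filter, 57 with the replicate block, 2 without C1q or Ptprc UMIs, 1 each with 2 pericentral UMIs, without leukocyte UMIs and with 6 of 8 genes, 5 with the block for large libraries, 47 in libraries of under 1000 cells and 0 to 22 with a library left out. Those between the zones (157) numbered 79 with DESeq2, 439 without the filter, 66 with thinning, 91 without leukocyte UMIs, 22 in libraries of under 1000 cells and 60 to 198 with a library left out. With at least 10 cells or 2 pericentral UMIs YAP7d had 1 library, and with under 1000 cells or a WT library left out WT had 1, which was assumed to vary like the other groups. Whether the replicate numbers mark a shared animal or day is not given in the sources used here, so calls gained or lost under the block are given as counts only.

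The pericentral share of sinusoidal cells turned from -11.5 to 6.38 percentage points without thinning and ranged from -14.6 to -7.76 with a library left out. The cycling share (21.1 points) ranged from 19.3 to 23.4 with a library left out and was 9.74 at 1000 UMIs, 12.4 with at least 3 UMIs and 50.1 without thinning, while the difference in central hepatocyte RNA from -1.83, without YAP3d replicate 4, to 4.67. The log2 ratio of Wwtr1 became -0.032 with at least 2 pericentral UMIs. The named genes kept their direction in 419 of 420 values against WT, 397 of 397 against YAP3d and 252 of 252 between the zones. Apart from Wwtr1, these genes were chosen for their differences in the same data, which largely set this outcome in advance. Both YAP7d comparisons could not be fitted without C1q and Ptprc UMIs, and the planned test of the zones' difference in response could not be fitted with 5 periportal cells per library. Apart from the built-in losses of cells and genes, the cause of these shifts was not tested.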

Other observations

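Further genes called between YAP7d and WT in the pericentral cells are given here, chosen after their values were seen. They belong to no list, and 3.74% of all genes tested were called higher and 3.99% lower. Ncl, which encodes nucleolin, rose from 329 and 253 CPM in WT to 925, 1138 and 547 CPM in YAP7d (log2 ratio 1.53, adjusted p 0.00925 in edgeR). The translation factor gene Eif5a rose by a log2 ratio of 1.71. The cyclin gene Ccnd1 and its kinase gene Cdk4 both rose by a log2 ratio of 1.27, and Trp53, the gene of p53, by 1.82 (adjusted p 0.00247 in edgeR).

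Lifr, a cytokine receptor gene, stood at 661 and 612 CPM in WT, 355 to 716 CPM in YAP3d and 114, 124 and 133 CPM in YAP7d (log2 ratio -2.39, adjusted p 0.00115 in edgeR), with YAP7d under all others. Il6st, the gene of a signalling chain shared by several cytokine receptors, had a log2 ratio of -2.18 (adjusted p 0.00320 in edgeR). Also lower were Apoe, the apolipoprotein gene (-1.80), Bgn, a matrix proteoglycan gene (-1.72), and Cyp26b1, whose product degrades retinoic acid (-1.84). Stellate and hepatocyte markers were lower in YAP7d as well, and their part in these falls was not tested.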
